A study of Mus musculus with 3 samples.

Results

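The regions described here were the intergenic regions of a 5-hydroxymethylcytosine (5hmC) map of mouse embryonic stem cells (mESCs), outside chromosome 8. A member was a listed region that the deposited tables class as intergenic, on chromosomes 1 to 19 without chromosome 8 and without the stretch of chromosome 1 from 110 to 130 Mb, with each position counted once. There were 8248 such regions among 19817 listed in the whole series and 9751 listed as intergenic. Genomic DNA of Sv129 mESCs was enriched with an antibody against 5hmC and sequenced (hMeDIP-seq). One group, FA4, was grown in folate at 4 mg/L, and the other, FA0, in folate-deficient medium at 0 mg/L. Both were kept in medium with fetal bovine serum. Each condition had 1 immunoprecipitated library, and an input sample of FA0 was not used here. The identity of the cells could not be checked against marker genes because DNA, not RNA, was measured.

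5hmC is made when TET enzymes oxidise 5-methylcytosine, and it is a step on the way to removing the methyl group. In embryonic stem cells the mark is known from enhancers, gene bodies and the edges of CpG-rich promoters, and distal enhancers lie in sequence that annotations call intergenic. Folate feeds the one-carbon cycle that makes S-adenosylmethionine, the methyl donor from which 5-methylcytosine, the substrate of TET enzymes, is made.

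A few members overlap the start of an annotated RNA, and these give the sequence behind the counts. Among windows of 300 bases around RefSeq start sites (250 before and 50 after, build GRCm38.p6), those of 26 members lay whole inside the member, 18 in members higher in FA0 and 8 in members higher in FA4. All 6 windows shown belong to long noncoding RNAs (lncRNAs), and they are the 3 per direction whose member had the smallest deposited p. Where a member held 2 windows, the one with more CG was taken, here and in the medians. Capitals mark each CG dinucleotide, the site at which cytosine is methylated and oxidised in most mouse cells. The first 3 lay in members higher in FA0 and the last 3 in members higher in FA4.
LOC108168800 (chr2:144101440-144101739, minus strand): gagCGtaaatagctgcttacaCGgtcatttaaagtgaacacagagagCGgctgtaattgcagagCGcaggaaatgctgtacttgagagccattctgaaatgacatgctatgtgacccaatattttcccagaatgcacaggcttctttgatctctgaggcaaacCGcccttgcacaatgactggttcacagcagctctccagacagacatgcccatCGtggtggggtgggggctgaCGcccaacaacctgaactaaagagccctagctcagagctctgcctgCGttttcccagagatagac
Gm41584 (chr17:45885060-45885359, plus strand): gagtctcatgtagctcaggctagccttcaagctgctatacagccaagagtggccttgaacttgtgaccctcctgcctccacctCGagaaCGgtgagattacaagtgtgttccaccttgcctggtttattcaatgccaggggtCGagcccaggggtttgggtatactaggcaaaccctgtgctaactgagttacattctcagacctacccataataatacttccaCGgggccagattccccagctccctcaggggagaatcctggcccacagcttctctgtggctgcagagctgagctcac
LOC108168713 (chr4:130975027-130975326, plus strand): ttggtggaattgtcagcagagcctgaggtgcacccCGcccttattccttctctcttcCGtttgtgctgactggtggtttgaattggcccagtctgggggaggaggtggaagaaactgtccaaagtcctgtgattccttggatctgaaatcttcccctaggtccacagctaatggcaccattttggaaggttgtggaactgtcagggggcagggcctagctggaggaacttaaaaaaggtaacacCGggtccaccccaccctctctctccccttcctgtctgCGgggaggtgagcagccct
Gm40791 (chr10:122540935-122541234, plus strand): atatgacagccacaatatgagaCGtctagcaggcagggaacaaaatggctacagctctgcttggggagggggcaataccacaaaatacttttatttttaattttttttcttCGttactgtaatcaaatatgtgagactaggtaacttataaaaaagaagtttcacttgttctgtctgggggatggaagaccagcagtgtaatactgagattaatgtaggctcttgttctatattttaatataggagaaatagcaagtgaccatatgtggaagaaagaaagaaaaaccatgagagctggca
Gm40653 (chr13:3276641-3276940, plus strand): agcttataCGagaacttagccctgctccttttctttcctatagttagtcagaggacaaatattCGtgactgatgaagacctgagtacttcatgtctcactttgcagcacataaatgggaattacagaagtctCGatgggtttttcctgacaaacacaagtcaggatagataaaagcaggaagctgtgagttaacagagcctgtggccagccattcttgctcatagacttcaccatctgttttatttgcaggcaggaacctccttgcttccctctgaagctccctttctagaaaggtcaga
Gm13861 (chr6:34653866-34654165, minus strand): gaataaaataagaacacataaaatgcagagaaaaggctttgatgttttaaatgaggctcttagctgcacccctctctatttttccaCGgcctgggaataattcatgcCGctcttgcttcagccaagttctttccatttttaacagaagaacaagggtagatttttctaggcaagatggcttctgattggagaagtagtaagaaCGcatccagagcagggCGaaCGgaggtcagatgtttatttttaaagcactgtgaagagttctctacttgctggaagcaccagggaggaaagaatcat
The member around LOC108168800 held 3 FA4 reads and 29 FA0 reads, and its window carried 8 CG. That of Gm41584 held 5 and 28 reads with 4 CG, and that of LOC108168713 held 0 and 15 reads with 4 CG. In the other direction the Gm40791 member held 23 FA4 reads and 0 FA0 reads with 2 CG, the Gm40653 member 19 and 0 reads with 3 CG, and the Gm13861 member 16 and 0 reads with 5 CG. Over the whole set the median was 4 CG and 52.3% G+C in windows higher in FA0, and 2 CG and 42.8% G+C in windows higher in FA4. CG reads the same on both strands, and 94.6% of all 32851 RefSeq windows held at least 1. The median of all windows was 7 CG, and that of the 11588 lncRNA windows was 4 CG. The windows say nothing of the members without an annotated start, and no genome sequence was used here for those.

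At the thresholds that the deposited values show (p at 1e-04 and a fold of 2), 2660 members carried more signal in FA0 and 5588 more in FA4. The share higher in FA0 was 32.2% (31.2% to 33.3%), against 38.9% of all listed regions. Intervals of shares are 95% Clopper-Pearson intervals for counting error only. They treat regions as independent, whereas neighbouring members tended to have the same direction, so the intervals can be too narrow. Reads without molecular identifiers are not independent molecules either. On the same chromosomes the share was 61.5% of 883 promoter regions, 62.1% of 393 exon regions, 44.9% of 5291 intron regions and 47.7% of 2357 regions in the upstream class. Intergenic regions thus had the lowest share of these classes, and their interval did not overlap that of any other. The intergenic regions left out had lower shares still, 25.2% of 885 on chromosome 8 and 8.97% of 368 in the chromosome 1 stretch. Every region was listed because its counts differed between these same 2 libraries, so direction and size are descriptions, and no difference had a replicate.

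The majority direction turned with the test and the scaling. At the authors' scaling and with p at 1e-04, a two-sided exact binomial test of the recovered reads passed 3305 members, 1921 higher in FA0 and 1384 higher in FA4, and it compares 2 libraries and not 2 conditions. Of all members 23.3% were higher in FA0 by this test, against 29.0% of all listed regions, and 16.8% were higher in FA4, against 16.0%. Among the members that passed, 58.1% (56.4% to 59.8%) were therefore higher in FA0. Raising FA0 by 25% against FA4 left 2660 higher in FA0 and 2543 higher in FA4, and raising FA4 by 25% left 1129 and 5588. No setting could add a region, because regions that did not pass the first listing were not analysed here.

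Most members rested on few reads. Members higher in FA4 had a median of 15 FA4 reads, and 84.1% (83.1% to 85.0%) of those members had none in FA0. Members higher in FA0 also had a median of 15, counted in FA0, and 36.8% (34.9% to 38.6%) had none in FA4. Against 0 reads, 13 FA4 reads or 10 FA0 reads were enough for listing, whereas the exact test needed 17 FA4 reads or 11 FA0 reads. Members with at least 20 normalized counts in the higher library numbered 994 higher in FA0 and 468 higher in FA4, and that minimum takes 18 FA0 reads but 24 FA4 reads. The largest counts of all lay on the FA4 side. Of 15 members with 100 or more reads in a library, all 15 were higher in FA4. Members higher in FA4 were longer, with a median of 1120 bp against 760 bp in members higher in FA0. They held a median of 14.0 FA4 reads per kb, against 20.8 FA0 reads per kb in members higher in FA0, both without scaling.

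**Figure D1:**
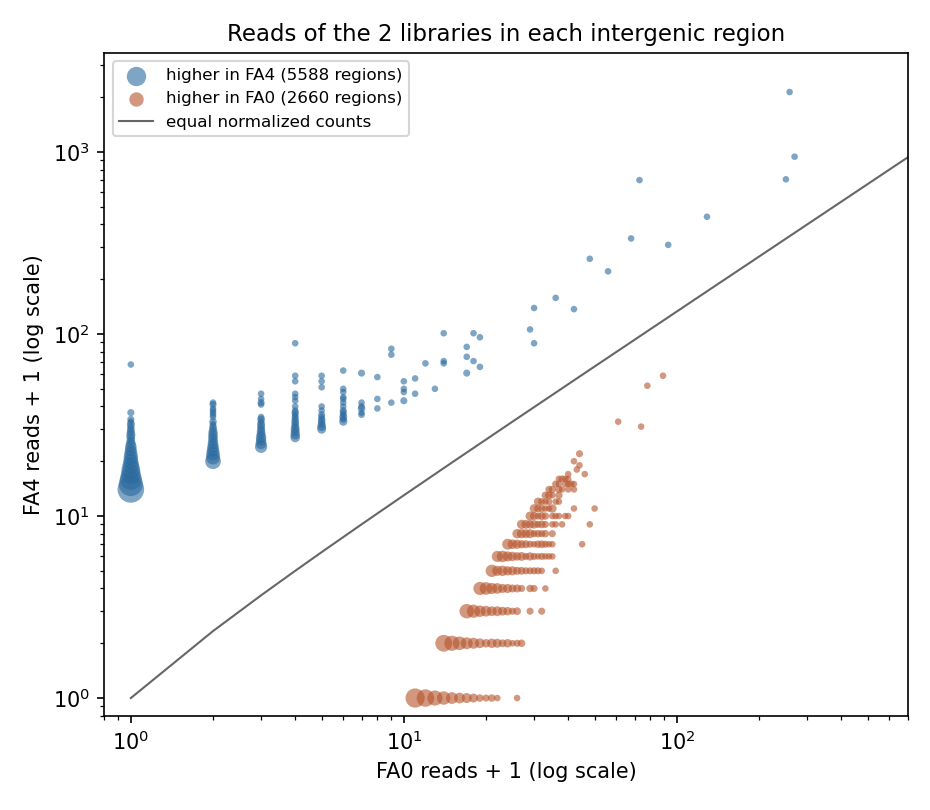
Reads of the FA4 library (vertical) against reads of the FA0 library (horizontal) in each of the 8248 intergenic regions, both plus 1 on log axes, with larger points for more regions. The grey line marks equal normalized counts. The 5588 members higher in FA4 pile up at 0 FA0 reads and reach 2135 FA4 reads, and the 2660 higher in FA0 reach 88 FA0 reads.

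The next comparison asked where between genes the regions of each direction lay. Members higher in FA0 lay closer to the start site of the gene that the tables assign, at a median of 60.9 kb, against 103 kb for members higher in FA4. The share higher in FA0 was 48.1% (42.2% to 54.0%) of 289 members under 10 kb from the start and 39.9% of 2536 from 10 to 50 kb. It was 36.0% of 1693 members from 50 to 100 kb, 25.9% of 3034 from 100 to 500 kb and 16.2% (13.6% to 19.2%) of 696 beyond 500 kb. Each step was downward, and the exact-test members stepped down as well, from 72.4% of 152 to 34.7% of 190. The authors' upstream class takes regions up to 19999 bp before a start, so members upstream of a start began at 20012 bp, whereas the nearest member downstream lay 2094 bp from its start. All members under 10 kb therefore lay downstream. From 10 to 50 kb the sides had 40.0% of 1336 (upstream) and 39.8% of 1200 (downstream) higher in FA0, and beyond 500 kb they had 17.0% of 311 and 15.6% of 385. From 50 to 100 kb they had 33.2% of 971 and 39.8% of 722, and from 100 to 500 kb 23.8% of 1526 and 28.1% of 1508, with intervals that overlapped slightly in both classes. Over all distances 30.7% (29.3% to 32.1%) of 4144 upstream members and 33.8% (32.4% to 35.3%) of 4104 downstream members were higher in FA0, and with at least 20 normalized counts the shares were 62.9% of 695 and 72.6% of 767.

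The same gradient appeared with the number of protein-coding gene starts within 500 kb on either side of a member. A gene start in this count was the lower coordinate of the annotated gene, whatever its strand. In the 967 members with 0 such starts, 17.9% (15.5% to 20.5%) were higher in FA0. The share was 22% with 1 to 2 starts, 30.4% with 3 to 5, 38.2% with 6 to 10, 42.1% with 11 to 20 and 50.1% (46.0% to 54.2%) of 585 with over 20. Distance and gene density go together, so each was also read within classes of the other. Of members from 100 to 500 kb away, 21.4% of 1512 were higher in FA0 with 0 to 2 starts and 39.4% of 170 with over 10 starts, and the intervals did not overlap. Of members with 0 to 2 starts, 24.4% of 201 from 10 to 50 kb and 16.3% of 683 beyond 500 kb were higher in FA0, with intervals that overlapped slightly. Intron regions showed the gradient too, and those on these chromosomes went from 21.1% of 147 with 0 starts to 63.3% of 684 with over 20.

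**Figure D2:**
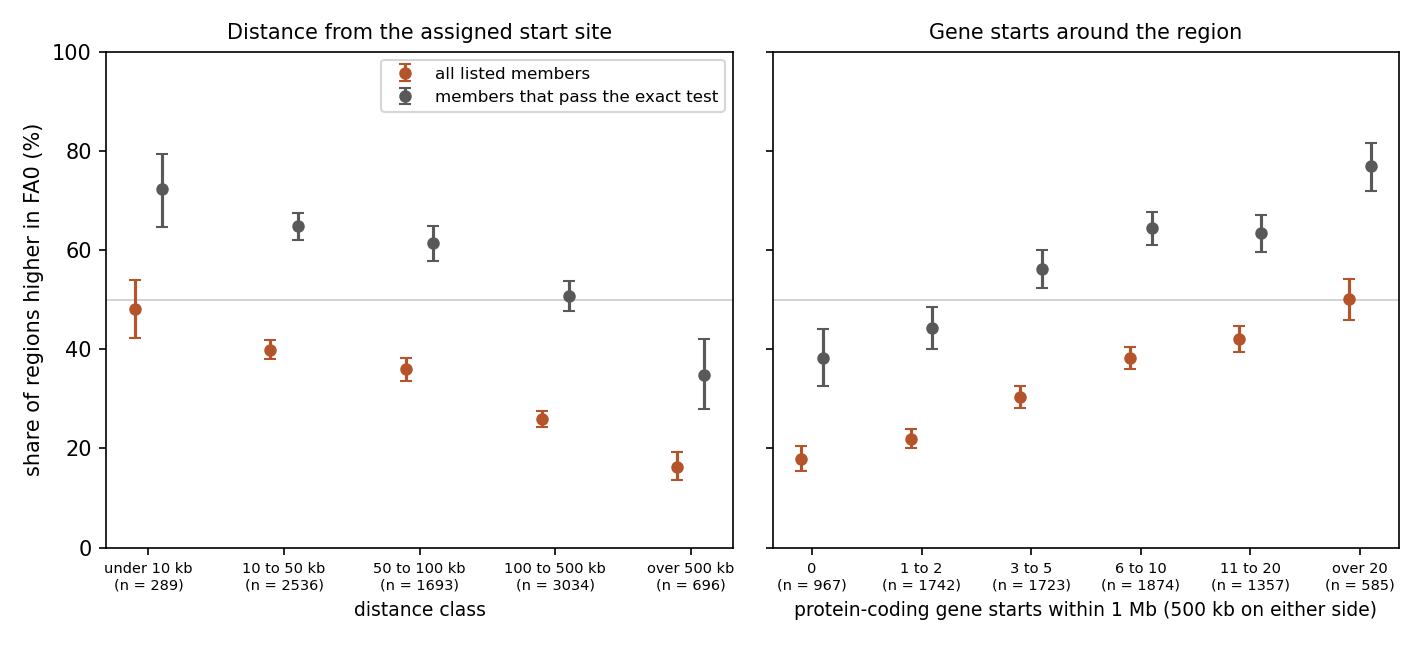
Share of intergenic regions higher in FA0 (vertical, percent) by distance class from the assigned start site (left) and by the number of protein-coding gene starts around the region (right). Gene starts are the lower coordinates of the annotated genes. Orange points are all members and grey points those that pass the exact test, with 95% Clopper-Pearson intervals. The share runs from 48.1% under 10 kb to 16.2% beyond 500 kb, and from 17.9% with 0 gene starts to 50.1% with over 20.

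The difference by distance was also read within classes of length. Among the shortest 25% of members (up to 740 bp), 60.5% of 1368 within 100 kb and 59.2% of 787 beyond 100 kb were higher in FA0, and these intervals overlapped. Among the longest 25% (from 1320 bp), the shares were 14.2% of 946 and 4.82% of 1079, and the intervals did not overlap. The intervals of the 2 distance classes thus stood apart among the longest members and overlapped among the shortest. Whether base composition, mappability or copy number follow the same gradient was not tested.

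Every chromosome showed the difference by distance. The share higher in FA0 was larger within 100 kb of the start than beyond it on 18 of 18 chromosomes. It was larger in members with over 10 gene starts than in those with 0 to 2 on 17 of 18, with chromosome 14 the exception (20% of 155 members with over 10 starts, 22.3% of 211 with 0 to 2). The chromosomes themselves spread from 24.1% of 614 members on chromosome 3 to 40.9% of 384 on chromosome 11. Chromosomes 5 (39.4% of 503) and 17 (39.2% of 324) were next to the top, with intervals that overlapped that of chromosome 11, and chromosome 14 (26.9% of 502) was next to the bottom, with an interval that overlapped that of chromosome 3.

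**Figure D3:**
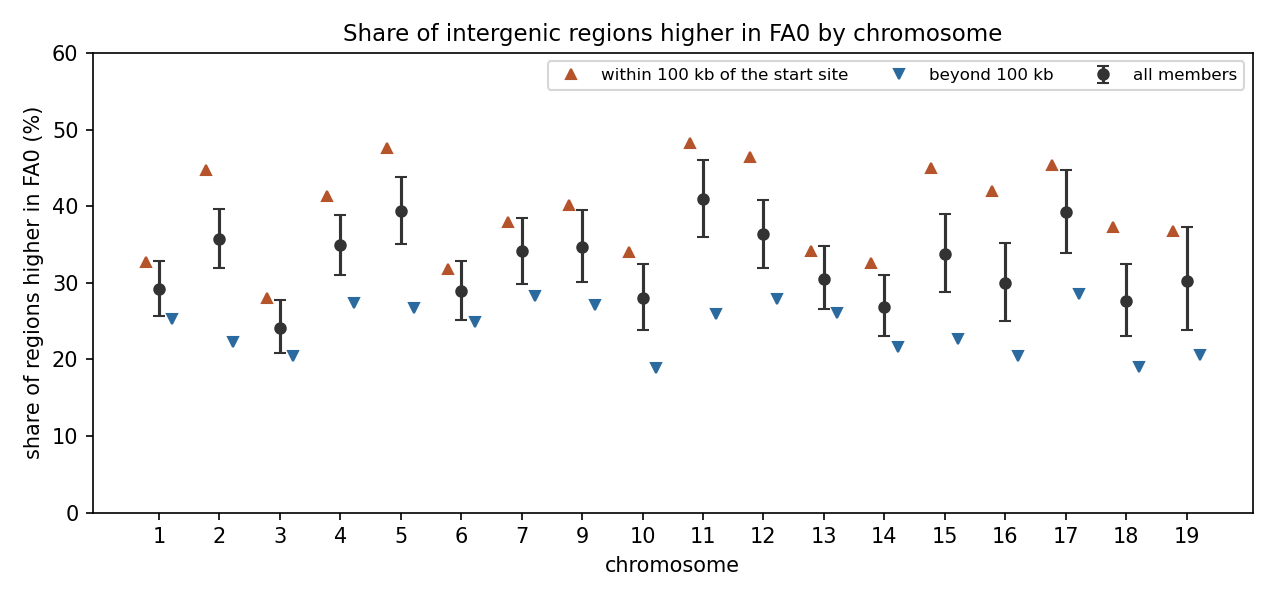
Share of intergenic regions higher in FA0 (vertical, percent) on each chromosome, with 95% Clopper-Pearson intervals for all members (black), and the shares within 100 kb (orange triangles) and beyond 100 kb (blue triangles) of the assigned start. The orange triangle stands above the blue one on 18 of 18 chromosomes, and the totals run from 24.1% on chromosome 3 to 40.9% on chromosome 11.

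Among members higher in FA0, the 10 with the smallest deposited p had between 25 and 49 reads in FA0 and between 0 and 10 in FA4. The leading one was assigned to Secisbp2, which acts in making selenoproteins, and lay 55023 bp from its start and inside the annotated gene Sema4d (chromosome 13, 51705681-51707780), with 6 FA4 reads and 44 FA0 reads. Its ratio of normalized counts, FA0 over FA4, was 9.78 (4.15 to 28.1, exact conditional interval). A member 30489 bp before Wnt7b, a ligand gene of the Wnt pathway, held 8 FA4 reads and 47 FA0 reads (ratio 7.83). A member 34797 bp before Tomm20l, a gene related to a subunit of the mitochondrial import receptor, lay inside Arid4a and held 2 and 31 reads (ratio 20.7, 5.26 to 178). The same 2 counts occurred 25313 bp before Timm8a2, related to a mitochondrial import chaperone, in a member inside Ubac2. A member 56988 bp before Jun, which encodes an AP-1 transcription factor, and another 66131 bp before Phf21a, a component of a histone demethylase complex, each held 1 FA4 read and 26 FA0 reads. The member assigned to 2510039O18Rik held 0 FA4 reads and 25 FA0 reads, at least 11.1-fold higher when 3 reads are set as the floor for 0. Folds of this kind carry no counting error and are not confidence limits. The other 3 were assigned to 4930524C18Rik (10 and 49 reads), 1700036G14Rik (4 and 35) and Arl14, a small GTPase gene (3 and 32). All 10 passed the exact test, with p from 6.66e-11 to 4.29e-09. They were chosen for a small p, so the ratios tend to be too large.

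The corresponding 10 members higher in FA4 were of another kind, with large counts in both libraries for most. Of these 10, 4 belonged to a set of 5 members close together on chromosome 1 (24611581-24616320), assigned to the collagen gene Col19a1 at 24423 to 28463 bp before its start. The stretch is a known insertion of mitochondrial sequence into the nuclear genome. The 5 members held 4704 FA4 reads and 904 FA0 reads in all, a ratio, FA4 over FA0, of 3.90 (3.63 to 4.20). The ratios of the 5 ran from 2.12 to 7.29, with reads of 707 and 250 at the lower end and 700 and 72 at the upper end. Reads of the mitochondrial genome can map there, so the amount of mitochondrial DNA in each library bears on these counts, and its part in the result was not tested. The set took 4.44% of the 105898 FA4 reads and 1.89% of the 47946 FA0 reads in all members.

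Others of these 10 also held many reads in FA0. A member 25859 bp from Ly6c2, a surface antigen gene in a family of tandem copies, held 440 FA4 reads and 128 FA0 reads (ratio 2.58). A member assigned to Polr3k, a subunit of RNA polymerase III, held 334 and 67 reads (ratio 3.74), and 2810429I04Rik had 308 and 92 (ratio 2.51). Vmn1r238, a vomeronasal receptor gene, had 258 and 47 (ratio 4.12). Reads of repeated sequence can be shared between copies, so these values are uncertain, and copy number was not tested. The remaining pair had few FA0 reads. A member of 3200 bp assigned to C130026I21Rik held 88 FA4 reads and 3 FA0 reads (ratio 22, 7.29 to 109), and the member 27769 bp before the pseudogene Smarca5-ps held 67 and 0 reads, at least 16.8-fold higher.

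**Figure D4:**
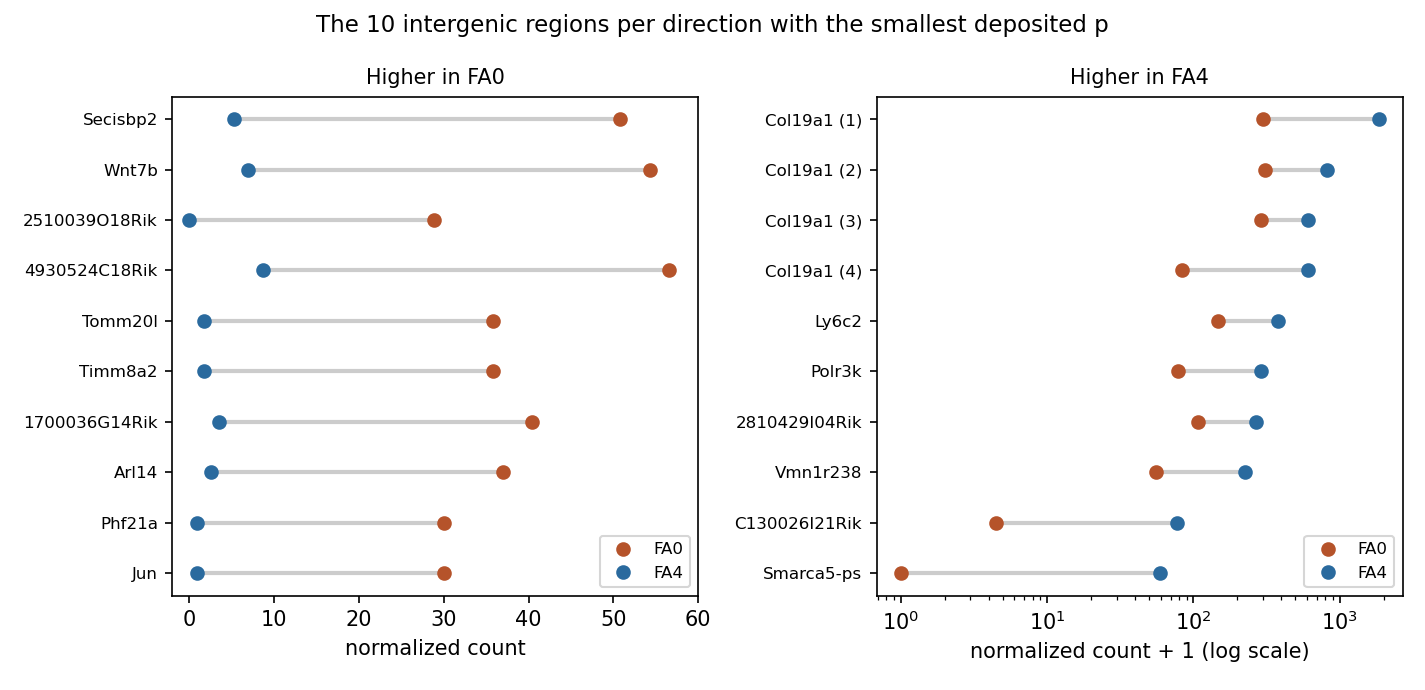
Normalized counts (horizontal) of the 10 intergenic regions with the smallest deposited p in each direction, FA0 in orange and FA4 in blue, labelled by the assigned gene. The left panel has a linear axis, and the right panel a log axis with 1 added, on which the Col19a1 members are numbered. Members higher in FA0 reach a normalized FA0 count of 56.6, whereas 8 of the 10 higher in FA4 have a normalized FA4 count of 223 or more.

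The 3 longest members were all higher in FA4. The first had 4260 bp and lay 40413 bp before the microRNA gene Mir701, inside the annotated gene Ttc28, with 58 FA4 reads and 3 FA0 reads. The next were a member of 3880 bp assigned to Prr16 (27 and 1 reads) and one of 3660 bp assigned to Mir6388 (46 and 3 reads). Most of the members farthest from a start lay in the same gene desert of chromosome 14, between Pcdh17, which encodes a protocadherin, and Olfm4, and they went both ways. At 2152132 bp before Pcdh17 a member held 2 FA4 reads and 16 FA0 reads, and at 2147049 bp from Olfm4 another held 1 and 14 reads. In the same desert, members at 2095502 bp before Pcdh17 and at 2078839 and 2041059 bp from Olfm4 held 14, 13 and 18 FA4 reads against 0 FA0 reads. Of these 5 members, 1 of each direction passed the exact test, the FA0-higher one assigned to Olfm4 (p = 6.35e-05, exact) and the FA4-higher one with 18 reads (p = 4.82e-05, exact). The first lost the call with FA4 scaled up by 25% and the second with FA0 scaled up by 25%. Members just inside the listing threshold had moderate counts in both libraries, such as one assigned to Tfap2c (21 FA4 reads, 43 FA0 reads) and one assigned to Slc16a14 (49 and 12), and neither passed the exact test. Regions just outside that threshold were not analysed here.

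Members of one direction tended to sit side by side. Of 8230 pairs of next neighbours on a chromosome, 63.2% had the same direction, where the 2 shares alone would give 56.3%. The share was 66.3% of 3411 pairs within 100 kb and 69.3% of 693 pairs within 10 kb. For these pairs the shares alone would give 57.9% and 57.5%. Of 2082 windows of 1 Mb with a member, 64 held 10 or more, and of these 34 had under 20% higher in FA0 and 9 had over 50%.

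The windows with most members were mostly higher in FA4. The window of chromosome 14 from 6 to 7 Mb held 28 members, 1 higher in FA0, with 735 FA4 reads and 101 FA0 reads among predicted genes. The window of chromosome 12 from 115 to 116 Mb held 27 members, 0 higher in FA0, with 585 FA4 reads and 25 FA0 reads. It lies over 42 annotated V segments of Igh, the immunoglobulin heavy chain locus, and most of its members are assigned to Mir6388, which had 25 members, 0 of them higher in FA0. Another, chromosome 4 from 145 to 146 Mb, held 24 members with 5 higher in FA0, near Smarca5-ps and Tnfrsf1b. Chromosome 13 from 12 to 13 Mb held 22 members, 5 higher in FA0, around Prl2c2, Prl2c3 and Prl2c4, prolactin family genes. The window of chromosome 14 from 4 to 5 Mb held 19 members, 2 higher in FA0, with 364 FA4 reads and 60 FA0 reads. Of the other symbols with most members, 4930474H20Rik had 22 (5 higher in FA0), the protocadherin gene Pcdh9 had 18 (2 higher in FA0), the teneurin gene Tenm4 had 15 and LOC100861615 had 14, each of these last 2 with 1 higher in FA0.

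The windows with most members higher in FA0 were others. The first, on chromosome 5 from 111 to 112 Mb, held 12 of 17 higher in FA0 around Mn1 and Pitpnb, with 117 FA4 reads and 231 FA0 reads. Chromosome 7 from 36 to 37 Mb held 9 of 11 around Tshz3, a zinc finger factor of neural and muscle development, with 42 and 132 reads. Chromosome 1 from 89 to 90 Mb held 8 of 8 higher in FA0, with 13 and 130 reads, around Gbx2, a homeobox factor that sets the midbrain-hindbrain boundary, and Sh3bp4. Chromosome 12 from 107 to 108 Mb held 8 of 16 around the zinc finger factor gene Bcl11b, with 134 FA4 reads and 148 FA0 reads. Chromosome 1 from 190 to 191 Mb held 7 of 10 around Prox1, a homeobox factor gene. That window had 152 FA4 reads and 139 FA0 reads, of which a single member higher in FA4 held 100 and 17. Read sums of windows are not scaled, whereas direction was read from normalized counts. Over its whole neighbourhood Tshz3 had 12 members, 7 higher in FA0, and 4 of the 12 passed the exact test. These windows were picked for their number of members in that direction, so their shares are descriptions.

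Some members overlapped a gene that the GRCm38.p6 annotation holds, although the tables class them as intergenic. Of the 6028 members with no annotated gene, 29.4% (28.3% to 30.6%) were higher in FA0, against 39.9% (37.8% to 41.9%) of the 2220 that overlapped one. The share was 43.3% of 1135 with a protein-coding gene, 38.9% of 893 with a lncRNA gene and 36.1% of 194 with a pseudogene. Among members over small RNA genes, all 6 with a small nucleolar RNA gene were higher in FA0, against 32.2% of all members, and 4 of these passed the exact test, against 23.3%. They include the Snord116 copies Snord116l12 and Snord116l13 within Snhg14, the paternally expressed transcript of the Prader-Willi region. The 4 members with a small nuclear RNA gene were higher in FA4, 1 by the exact test, and of 3 with a tRNA gene 1 was higher in FA0 and 2 in FA4.

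Lists of genes with known roles were then laid over the assigned symbols. An assigned gene is the one the tables give and need not be the gene that a region acts on. Transcription factor genes of the neural tube and neuroectoderm had 90 members over 38 symbols, 39 higher in FA0 and 51 higher in FA4. Their share higher in FA0, 43.3% (32.9% to 54.2%), stood beside 32.2% of all members. Of the 90, 12 were assigned to Tshz3, 7 of them higher in FA0, along a stretch of chromosome 7 (36283381-37170040). The interval starts just above the share of all members, and it was not computed without Tshz3. By the exact test 31 of the 90 were higher in FA0 (34.4%, against 29.0% of all listed regions) and 6 were higher in FA4 (6.67%, against 16.0%). Their medians were 13 FA4 reads and 1.5 FA0 reads, against 13 and 1 over all listed regions. The median distance of these 90 was 138 kb, farther than the 83.8 kb of all members. Lhx5, a LIM homeobox factor of the forebrain, had 4 members, 3 higher in FA0, among them one 67685 bp before its start with 1 FA4 read and 21 FA0 reads. Hes1, the Notch effector that keeps neural progenitors, had 2 members of opposite direction, the one higher in FA0 with 0 and 16 reads at 43194 bp. Zic2, a zinc finger factor of neural tube closure, had one with 9 and 31 reads, Olig2, a factor of motor neuron and oligodendrocyte precursors, one with 1 and 16 reads, and Sox6 3 members, all higher in FA0. In the other direction Pax3, a paired box factor of the dorsal neural tube, had 2 members, both higher in FA4, one with 22 FA4 reads and 0 FA0 reads. Pax2 had a single member, with 23 and 1 reads. Sox5 had 3, all higher in FA4, one of them also with 23 and 1 reads. Zic1 had 3 members and Tfap2b 4, all higher in FA4 and none past the exact test. Of the members of Irx1, 5 of 8 were higher in FA4, and of those of Nr2f1, 5 of 7. The share of this list stood above that of all members with either library scaled up by 25% (66.1% against 51.1%, and 29.2% against 16.8%). With unscaled reads, a setting that also changed the test to the exact one, it did not (7.14% of 28 against 7.78%).

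Signalling genes were less numerous. The Hedgehog list, the pathway that patterns the ventral neural tube, had 21 members, 9 higher in FA0 and 12 higher in FA4. The exact test passed 5 higher in FA0 (23.8%, against 29.0% of all listed regions) and 1 in FA4 (4.76%, against 16.0%). Scube2 and Scube3, which encode secreted proteins that help release Hedgehog ligands, had 3 members, all higher in FA0 and past the exact test, with 8 FA4 reads and 29 FA0 reads and with 0 and 12 reads near Scube2, and with 2 and 19 reads near Scube3. With FA4 scaled up by 25% the Scube2 member with 0 and 12 reads no longer passed. Csnk1g3, a casein kinase gene, had 5 members of both directions. Cdon and Spopl each had 2 members, all higher in FA4. Gli3 had 3 members and Shh 2, each gene with 1 higher in FA0. None of the members of Cdon, Spopl, Gli3 and Shh passed the exact test. BMP and TGF-beta ligands and antagonists had 27 members, 7 higher in FA0. By the exact test 5 were higher in FA0 (18.5% of the list, against 29.0% of all listed regions) and 1 in FA4 (3.70%, against 16.0%). Bmp2, a ligand gene, had 5 members, one with 1 and 17 reads and 4 higher in FA4 with 13 to 15 reads against 0, of which the first passed the exact test. Fst, a gene for an activin antagonist, had 2 members, both higher in FA4, one of them with 18 FA4 reads and 0 FA0 reads. Among the 13 members of Wnt ligands and antagonists 5 were higher in FA0 (38.5%, 13.9% to 68.4%, against 32.2% of all members). The exact test passed 4 higher in FA0 (30.8%, against 29.0% of all listed regions) and 2 in FA4 (15.4%, against 16.0%). Beside Wnt7b, Rspo2, an amplifier of Wnt signals, had 3 and 21 reads, while Dkk2, an antagonist gene, had 25 FA4 reads and 0 FA0 reads. The list named FGF ligands had 8 members, 2 higher in FA0 (25%, 3.19% to 65.1%, against 32.2% of all members). The exact test passed 1 higher in FA0 (12.5%, against 29.0% of all listed regions) and 3 in FA4 (37.5%, against 16.0%). Of the 8, 5 were assigned to Fgf14, all higher in FA4, and 1 to Fgf12. These 2 genes encode intracellular FGF homologous factors, not secreted ligands.

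Pluripotency genes and the enzymes of the mark itself were next. Of 25 members assigned to pluripotency genes 7 were higher in FA0. By the exact test 4 were higher in FA0 (16% of the list, against 29.0% of all listed regions) and 5 in FA4 (20%, against 16.0%). Sall4, a zinc finger factor of pluripotent cells, had 2 members, with 0 FA4 reads and 17 FA0 reads and with 14 and 0 reads. Esrrb, a nuclear receptor gene of naive cells, had one with 0 and 14 reads. Klf4 had 4 members, 2 with 0 and 13 reads each and 2 higher in FA4 with 14 and 0 and with 13 and 0 reads, and the former pair passed the exact test. Nr5a2, another nuclear receptor gene, had 6 members, 5 higher in FA4, among them one with 39 FA4 reads and 6 FA0 reads. Dppa4 had 5 members, 4 higher in FA4, among them those with 24 and 1 reads and with 22 and 1 reads. Tet2, which encodes one of the TET enzymes, had a single member, 95330 bp before its start, with 20 FA4 reads and 0 FA0 reads (p = 1.50e-05, exact), and with FA0 scaled up by 25% it no longer passed (p = 0.00010039, exact). The list of DNA methylation and demethylation genes had 10 members, 9 higher in FA4. Its share higher in FA0 was 10% (0.253% to 44.5%), against 32.2% of all members. The exact test passed 1 higher in FA0 (10%, against 29.0% of all listed regions) and 4 in FA4 (40%, against 16.0%). Of the 9 higher in FA4, 5 were assigned to Mbd2, a reader of methylated DNA, at 82339 to 575609 bp from its start. The nearest protein-coding gene of the farthest was Dcc. The exception was Gadd45b, a gene linked to active demethylation, with 8 and 30 reads.

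Genes of folate and one-carbon metabolism had 15 members over 6 symbols, 5 higher in FA0, a share (33.3%, 11.8% to 61.6%) close to that of all members. Psat1, an enzyme gene of serine synthesis, had 8 of them, 4 higher in FA0. Exact-test calls of the whole list were 3 higher in FA0 (20%, against 29.0% of all listed regions) and 1 in FA4 (6.67%, against 16.0%). All 4 were assigned to Psat1, at 264222 to 631392 bp from its start. They held 0 and 11, 1 and 15, and 1 and 14 reads in FA4 and FA0 for the nearer 3 and 20 and 0 reads for the farthest. The last no longer passed with FA0 scaled up by 25%, and those with 0 and 11 and with 1 and 15 reads no longer passed with FA4 scaled up by 25%. Mat2b, a regulatory subunit of the enzyme that makes S-adenosylmethionine, had 2 members, both higher in FA4 and neither past the exact test. Imprinted genes, expressed from one parental copy, had 13 members, 7 higher in FA0 (53.8%, 25.1% to 80.8%, against 32.2% of all members). The exact test passed 6 higher in FA0 (46.2%, against 29.0% of all listed regions) and 3 in FA4 (23.1%, against 16.0%). Kcnk9, a potassium channel gene, had one with 2 and 28 reads (ratio 18.7, 4.71 to 162), Dio3, a thyroid hormone deiodinase gene, one with 6 and 29 reads, and Zdbf2 one with 4 and 24 reads. Sfmbt2 (19 FA4 reads and 0 FA0 reads) and Snrpn (17 and 0 reads) went the other way, and Grb10 had members of both directions.

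Adhesion genes and chemosensory receptors had the lowest shares in FA0 after the DNA methylation and demethylation list (10% of 10 members). Synaptic adhesion and cadherin genes had 168 members, 34 higher in FA0, which is 20.2% (14.4% to 27.1%). They lay at a median of 506 kb from the start, with medians of 14 FA4 reads and 0 FA0 reads. Of all members, 25.9% from 100 to 500 kb and 16.2% beyond 500 kb were higher in FA0, and the share of this list lay between them. By the exact test 21 were higher in FA0 (12.5%, against 29.0% of all listed regions) and 30 in FA4 (17.9%, against 16.0%). Tenm4 had one with 27 FA4 reads and 0 FA0 reads, Adgrl2, a latrophilin gene, had 8 members, all higher in FA4, and Lrrc4c had 9, all higher in FA4 but none past the exact test. Cntn5, a contactin gene, was different, with 5 of 9 higher in FA0. Olfactory receptor genes had 102 members, 19 higher in FA0 (18.6%, 11.6% to 27.6%), and vomeronasal receptor genes had 88, 12 higher in FA0 (13.6%, 7.25% to 22.6%). Unlike the adhesion genes these lay near their starts, at medians of 14.7 kb and 30.3 kb. Of all members, those under 10 kb had 48.1% and those from 10 to 50 kb had 39.9% higher in FA0. The shares of these 3 lists lay below that of all members under both scalings and by the exact test of unscaled reads. Zinc finger genes with a Zfp symbol had 137 members, 33 higher in FA0 (24.1%, 17.2% to 32.1%). Receptor and zinc finger genes stand in tandem copies, where reads can be shared, and the part of copy number was not tested.

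Larger name classes stayed near the whole. Predicted and RIKEN genes had 1889 members with 30.2% higher in FA0, and microRNA genes 392 with 33.7%. Genes typical of fibroblasts, a cell type used as a feeder layer for mESCs, had 15 members, 6 higher in FA0 and 9 in FA4. By the exact test 4 were higher in FA0 (26.7%, against 29.0% of all listed regions), assigned to Sparc, Thy1, Twist1 and Twist2, and 2 in FA4 (13.3%, against 16.0%), of which the Postn member had 19 FA4 reads and 0 FA0 reads. A region near a gene does not show whether that gene's cell type is present, and the part of other cells was not tested.

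**Figure D5:**
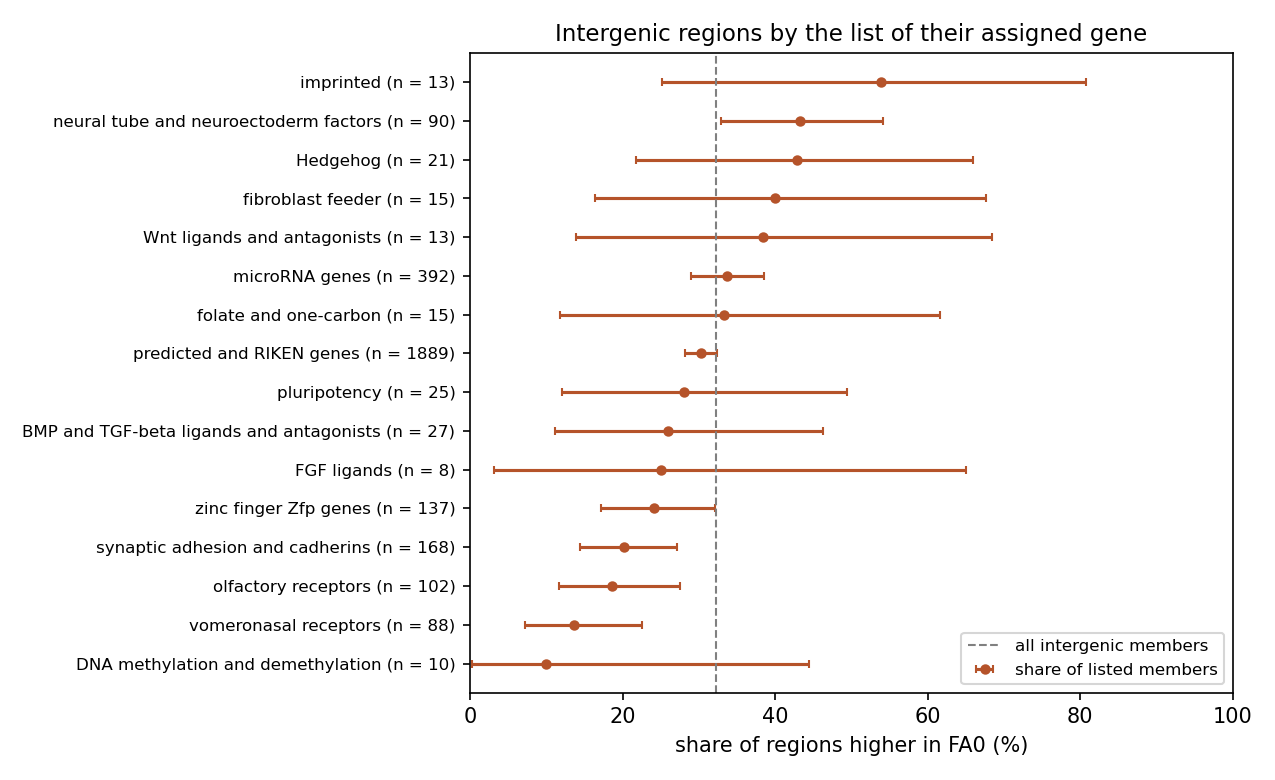
Share of intergenic regions higher in FA0 (horizontal, percent) for each list of assigned genes (vertical, with the number of members), with 95% Clopper-Pearson intervals. The dashed line marks all members at 32.2%. The intervals of the synaptic adhesion, olfactory, vomeronasal and Zfp lists (20.2%, 18.6%, 13.6% and 24.1%) end below the line. The Zfp interval ends just below it. That of the neural tube list (43.3%), with 12 of its 90 members assigned to Tshz3, starts just above it.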

How the data were processed

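hMeDIP-seq of 2 immunoprecipitated libraries was analysed, FA0 and FA4, with 1 library each. Tools named in the submitters' processing notes are cutadapt 1.9.1 and Bowtie2 2.2.4, with mm10 as the build. The program behind the region calls is not given in the sources used here. Kits and fragment sizes differ between labels and methods. The authors deposited, for each region, a normalized count per library, a signal that is the read count times 1 factor per library (0.866 for FA4, 1.15 for FA0). Division gave whole reads within 0.0201 (tolerance 0.03). The deposited p-value was used to order regions and as the threshold, and the deposited FDR as an alternative threshold. The 2 whole-genome tables were joined. The 2 promoter tables and 4 columns of per-sample averages were not used, and the authors' fold was read only for the listing threshold (smallest 2.01).

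Sums over listed regions are not library depth, which was not used here. Ratios are of normalized counts with exact conditional binomial intervals, and the null share of the exact test was 57.1% FA4 reads. Of 5233 assigned transcripts 5183 matched the GRCm38.p6 table by accession, and for 5073 the tables' start lay within the annotated gene, which then gave genes and gene starts. Members, gene lists, named regions and alternatives were chosen with earlier results of these data known. Named regions were the 10 per direction with the smallest deposited p, the 3 farthest and the 3 just inside the threshold per direction, the 3 longest, the 5 symbols and 5 windows with most members, and up to 4 per list. The windows and symbols with most members higher in FA0, gene density, distance classes and RefSeq windows were added after seeing the data, as were other list members named with their reads and the small RNA classes. Scripts ran in Python 3.11.15 with scipy 1.17.1 for the tests, pandas 2.3.3 and numpy 2.4.6 for tables, and matplotlib 3.10.9 for figures. The recovery of reads and the exact test were tested on simulated data.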

Additional observations from a re-analysis of the deposited data

How the results depend on the processing

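Rescaling held the product of the 2 factors constant. With unscaled reads, members were taken by the exact test at equal shares of both libraries, so test and scaling changed together. Members higher in FA0 (2660) numbered 1129 with FA4 scaled up by 25%, 255 with unscaled reads, 634 at p of 1e-05, 994 with at least 20 normalized counts and 1509 at 50 kb or more. Those higher in FA4 (5588) numbered 1384 by the exact test, 2543 with FA0 scaled up by 25%, 3022 with unscaled reads, 1259 at p of 1e-05 and 468 with at least 20 normalized counts. The share higher in FA0 (32.2%) passed 50% by the exact test (58.1%), with FA0 scaled up (51.1%) and with at least 20 normalized counts (68.0%). It was 16.8% with FA4 scaled up, 7.78% unscaled, 33.5% at p of 1e-05, 30.7% with all autosomal regions, 27.8% at 50 kb or more and 43.3% with each window once per direction. A fold of 4, FDR at 0.05, merging within 1000 bp and leaving out the 5 fullest windows kept it between 31.6% and 32.6%.

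The difference in median distance (41.7 kb) kept its sign and was 23.0 kb with at least 20 normalized counts. Neighbours of the same direction (63.2%) were 66.3% within 100 kb and 61.0% among exact-test members. The shares alone would give 56.3%, 57.9% and 51.4%. The share under 50 kb exceeded that beyond 500 kb by 24.5 percentage points, by 14.9 with FA4 scaled up, 9.06 unscaled and 45.2 with at least 20 normalized counts. The difference between over 20 and 0 gene starts (32.2 points) was 20.3, 13 and 49.9 under the same settings.

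By the exact test, which gave 58.1% for all members and 64.4% for all listed regions, the share higher in FA0 was 83.8% of 37 for the neural tube list, 83.3% of 6 for Hedgehog and for BMP and TGF-beta, 66.7% of 6 for Wnt and for fibroblast genes and 75% of 4 for folate. It was below that of all members for predicted (53.1% of 764), microRNA (56.1% of 157) and Zfp genes (47.2% of 53). Lower still were pluripotency (44.4% of 9), synaptic adhesion (41.2% of 51), olfactory (38.5% of 39) and vomeronasal genes (28.1% of 32). The FGF list had 25% of 4, DNA methylation and demethylation genes 20% of 5 and imprinted genes 66.7% of 9. Of 92 named regions 77 passed the exact test. With FA0 scaled up 16 lost and 4 gained the call, with FA4 scaled up 6 and 9, unscaled 10 and 9 and none changed direction. The cause of these changes was not tested. No paired analysis was possible because each condition had 1 library. Sequence content of members was not run, since no genome was used here. Few reads limit most members.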
